A study of Homo sapiens with 12 samples.

Results

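Of the 12 arrays of the series, 6 were compared here, in 2 sets of 3 chosen by the measured levels of the siRNA targets themselves. The intermediate-CCND1 set was selected on a CCND1 intensity from 4000 to 6000, and the all-targets-high set on a CCND1 intensity above 10000 with a CDK4 intensity above 2000. Both sets hold RNA of MDA-MB-231, an established human breast cancer cell line of mesenchymal appearance without oestrogen receptor. By their labels, the intermediate-CCND1 arrays are cyclin D1 siRNA replicate 3, CDK4/6 siRNA replicate 3 and non-targeting siRNA replicate 3. The all-targets-high arrays are labelled control replicate 1, cyclin D1 siRNA replicate 1 and CDK4/6 siRNA replicate 1. The deposited titles read Control, CCND1 silenced, CDK4/6 silenced and Non-targeting pool siRNA. The control is called no siRNA below, a name that the titles do not give. The study silenced cyclin D1 or its partner kinases with siRNA and hybridised total RNA to Illumina bead arrays, with 3 replicates under each of 4 labels. An intensity is the brightness of a probe on a linear scale, already normalised between arrays when deposited.

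Cyclin D1, the product of CCND1, binds the kinases CDK4 and CDK6 in early G1. The complexes phosphorylate the retinoblastoma protein, which releases E2F transcription factors from repression, and E2F then drives transcription of the genes for DNA replication and, later, mitosis. An siRNA is a short double-stranded RNA loaded into Argonaute to cleave a matching transcript. A non-targeting pool is designed to match no transcript and accounts for the transfection itself. Cyclin D1 also acts without its kinases, and the study was directed at genes of migration and epithelial to mesenchymal transition such as ID1 and SNAI2.

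The target levels contradicted the labels. On the intermediate-CCND1 set, CCND1 intensity was 5100 on the array labelled cyclin D1 siRNA, 4361 on that labelled CDK4/6 siRNA and 4311 on that labelled non-targeting siRNA. On the all-targets-high set it was 13658.8 on the control array, 13878 on the array labelled cyclin D1 siRNA and 13952 on that labelled CDK4/6 siRNA. The array labelled cyclin D1 siRNA in the high set therefore carried as much CCND1 as the control array, and the array labelled non-targeting in the intermediate set carried the least of its own set. CDK4 intensity was 2234, 2408 and 2167 on the intermediate arrays in the same order, against 2609, 2771 and 2561 on the high arrays. The arrays labelled CDK4/6 siRNA were thus among those with normal CDK4 in both sets. CDK6 intensity was 1660 ± 114 (SD, n = 3) on the intermediate and 1370 ± 93.9 (SD, n = 3) on the high arrays. The nearest arrays outside the rule had a CCND1 intensity of 3513 and, among those with high CCND1, a CDK4 intensity of 408.6. Because these levels chose the sets, CCND1, CDK4 and CDK6 were not tested, and all p-values below compare arrays chosen by these levels rather than treatments.

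**Figure D1:**
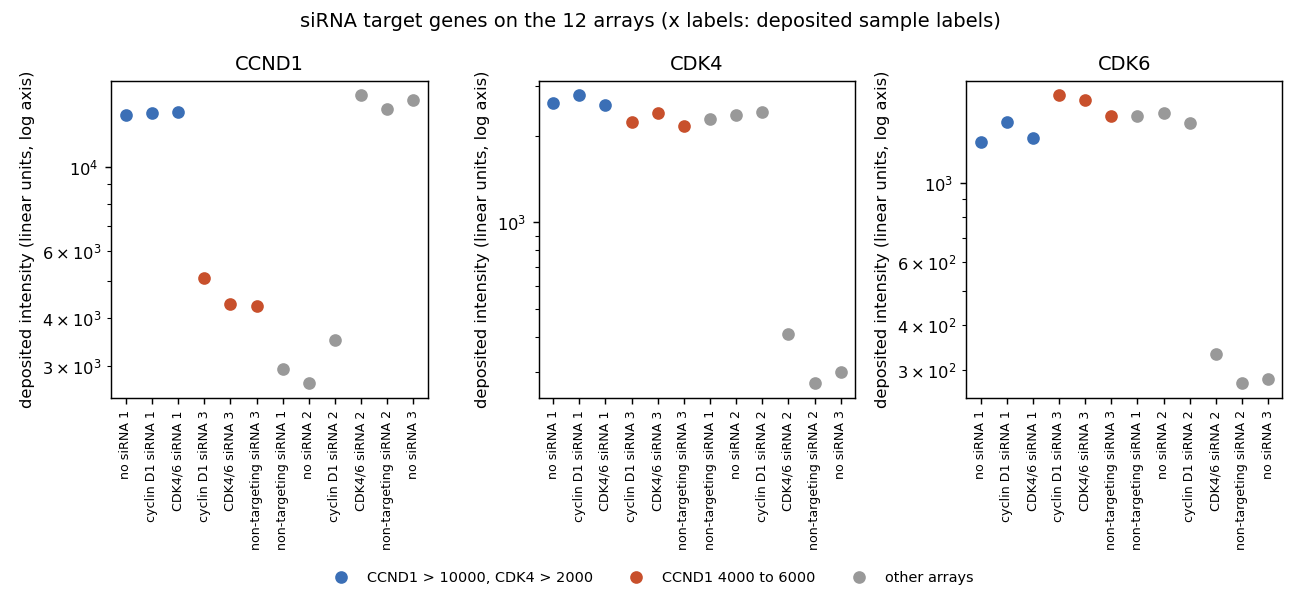
Deposited intensity (linear units, log axis) of CCND1, CDK4 and CDK6 on each of the 12 arrays, with 1 point an array and the sample labels as named here on the x axis. The all-targets-high arrays (blue) lie at 13658.8 or above for CCND1, the intermediate-CCND1 arrays (red) between 4311 and 5100, and arrays of 1 label fall at different levels.

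The other 6 arrays formed a background on both sides of this contrast. The arrays labelled non-targeting siRNA replicate 1, no siRNA replicate 2 and cyclin D1 siRNA replicate 2 had the lowest CCND1, under 4000, with normal CDK4. Those labelled CDK4/6 siRNA replicate 2, non-targeting siRNA replicate 2 and no siRNA replicate 3 had high CCND1 and a CDK4 intensity under 1000. In the deposited order of samples, each level-defined group is a run of neighbouring samples, whereas the labels cycle across the runs. Whether labels and arrays were mismatched was not tested. The part of transfection, or of off-target effects of a control pool, was not tested either. All intermediate arrays carry replicate number 3 and all high arrays number 1, so that set and replicate number cannot be told apart between them. Of the other arrays, no siRNA replicate 3 carries number 3 and had ANXA10 at 445.4, MLLT11 at 516.7 and PDZD8 at 329.4, nearer the high than the intermediate set. Non-targeting siRNA replicate 1 carries number 1 and had CDT1 at 447.7 and GINS2 at 1383, nearer the intermediate set. These are single arrays and genes chosen with their pattern known, and the part of the replicate number was not tested. The legends of the study describe independent experiments, whereas the labels give only a replicate number, and p-values measure the spread between these arrays. Over the 13434 genes tested, centred on their means, the array labelled cyclin D1 siRNA replicate 3 correlated most with CDK4/6 siRNA replicate 2 (r = 0.427), and its lowest correlation within its own set was r = 0.0208. The 3 high arrays each correlated most within their set, at r of 0.355 or more. Results were therefore also computed without the array labelled cyclin D1 siRNA replicate 3.

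Markers of the cell line were bright on every array. Vimentin (VIM) lay between 15294.5 and 16971 and CD44 between 10317 and 13021. Of 14 luminal markers with a probe, 10 were above the background level of 44.5 on all 12 arrays, among them KRT18 at 5192 to 6215, KRT19 at 3133 to 4123, KRT8 at 933 to 1294 and ERBB3 at 2875 to 3933. Oestrogen receptor (ESR1) reached 46.1 and E-cadherin (CDH1) 48.5, and PGR and FOXA1 were below that level on every array. Of 6 tested leukocyte markers, CD2 and CD14 were higher on the intermediate arrays and 4 were not called, beside 0.767% higher over all genes tested. The leukocyte-defining PTPRC was below background on all 12 arrays. A second CD14 probe gave 0.24 and did not pass (limma adjusted p = 0.149). Summed leukocyte marker intensity was 6441 to 6991 on the intermediate and 5798 to 6363 on the high arrays. Most of that sum was CD68, which was not called and lay at 4277 to 5143 over the 12 arrays. Of the luminal, fibroblast and endothelial markers tested (11, 5 and 3 genes), 0 were called by limma at an adjusted p of 0.05, with 3 of the 19 at an unadjusted p under 0.05, a cut passed by 17.2% of all genes tested. The part of CD2 and CD14 in the results was not tested.

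ANXA10, MLLT11 and PDZD8 set the intermediate-CCND1 arrays apart from all others. These 3 genes were chosen with their pattern on these arrays known, so their values are a description. ANXA10 (chromosome 4, 168092537 to 168187736, GRCh38.p14) encodes an annexin, a family of calcium-dependent phospholipid-binding proteins. Its intensity was 135.1, 116.4 and 116.3 on the arrays labelled cyclin D1, CDK4/6 and non-targeting siRNA of the intermediate set. It was 482.5, 627.6 and 485.5 on the high arrays labelled control, cyclin D1 siRNA and CDK4/6 siRNA. The other 6 arrays lay between 445.4 and 732.7, so that no array outside the intermediate set came near it. The log2 difference, intermediate minus high, was −1.95 (SE 0.106), a 3.87-fold lower level. All log2 differences are of background-corrected intensities with an offset of 50, which understates the change of dim genes such as these.

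MLLT11 (chromosome 1, 151060397 to 151069544) was first described as a fusion partner of the KMT2A gene in leukaemia. In the same order, its intensity was 154.1, 126.1 and 141.2 on the intermediate arrays and 530.8, 661.5 and 544.7 on the high arrays. On the other 6 it ran from 516.7 to 690.2, again without overlap. The log2 difference was −1.90 (SE 0.0972), or 3.74-fold. PDZD8 (chromosome 10, 117277274 to 117375440) encodes a protein of the endoplasmic reticulum that tethers it to other organelles. Its intensity was 93.0, 82.5 and 94.6 on the intermediate and 356.5, 337.1 and 328.6 on the high arrays. The other 6 arrays, at 310.7 to 362.2, could not be distinguished from the high ones by range, and the log2 difference was −1.72 (SE 0.0635), or 3.30-fold.

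The arrays with CCND1 under 4000, which had less CCND1 than the intermediate arrays, carried ANXA10 at 521 to 733, MLLT11 at 637 to 690 and PDZD8 at 311 to 362. The part of the CCND1 level in the pattern of these 3 genes was not tested. Within the label cyclin D1 siRNA, the array of the intermediate set minus that of the high set gave −2.07 for ANXA10, −1.98 for MLLT11 and −1.67 for PDZD8. Within the label CDK4/6 siRNA the corresponding values were −1.90, −1.96 and −1.78, each from 1 array against 1 and without a replicate check. As the target levels contradict these labels, a shared label need not mean a shared treatment. Without the array labelled cyclin D1 siRNA replicate 3 the 3 differences were −2.02, −1.97 and −1.74.

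**Figure D2:**
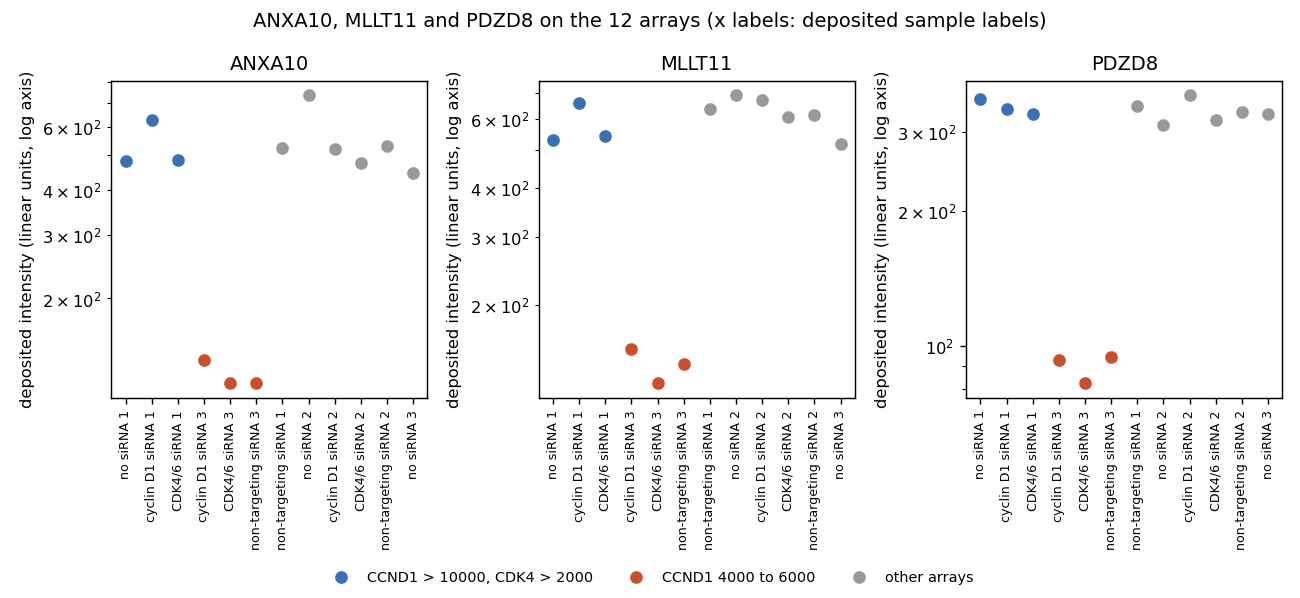
Deposited intensity (linear units, log axis) of ANXA10, MLLT11 and PDZD8 on each of the 12 arrays, 1 point an array. The intermediate-CCND1 arrays (red) sit between 82.5 and 154.1 over the 3 genes, and the other 9 arrays at 310.7 or above.

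Across all genes, the contrast was mainly one of lower levels on the intermediate-CCND1 arrays. Of 13434 genes tested with limma, 419 (3.12%) were lower and 103 (0.767%) were higher at an adjusted p of 0.05, and 80.3% of the called genes were lower. The median log2 difference over all tested genes was 0.01. The lower genes differed by 0.24 to 1.95 on the log2 scale, with a median of 0.48 and 10 genes beyond 1. The higher genes differed by 0.25 to 0.79, with a median of 0.37. The 2 sets overlapped for 0 of the 419 and 0 of the 103 genes. The call favours sets without overlap, and overlap was not counted over all genes tested. The sign of called genes within the labels that have an array in each set was thereby all but fixed and adds no support. The number of lower genes fell from 419 to 225 without the array labelled no siRNA replicate 1, to 209 without cyclin D1 siRNA replicate 1 and to 257 without CDK4/6 siRNA replicate 1, and the higher genes from 103 to 29, 20 and 24. With the label as a block, which leaves 2 pairs of arrays, 16 genes were lower and 0 higher at a limma adjusted p of 0.05, whereas 1872 had an unadjusted p under 0.05. The target levels contradict these labels, so that the block need not hold the treatment constant. By comparison, the methods' test, which takes each gene's variance by itself, called 0 genes after adjustment and 1524 at an unadjusted p under 0.05.

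**Figure D3:**
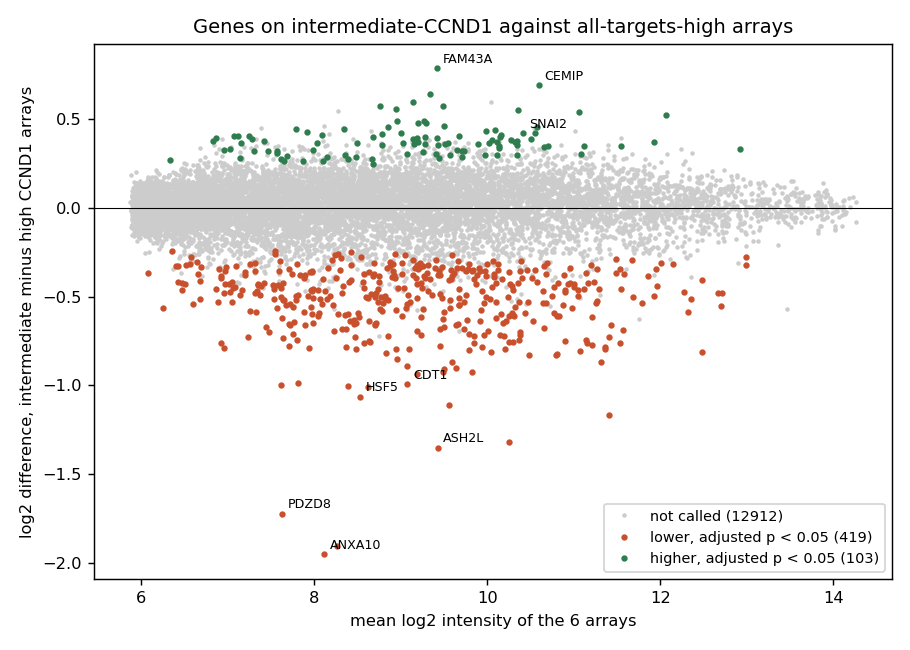
Log2 difference between the sets (intermediate minus high, y axis) against the mean log2 intensity of the 6 arrays (x axis), with 1 point a gene tested. The 419 lower genes (orange) outnumber the 103 higher genes (green) and reach −1.95, whereas the highest is 0.79.

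The called lower genes did not share 1 pattern over the remaining arrays. For 146 of the 419 (34.8%), all 6 other arrays lay nearer the high set, so that the intermediate arrays stood alone (a first kind of gene). For 175 (41.8%), all 6 lay nearer the intermediate set, so that the high arrays stood alone (a second kind), and 98 were mixed. The intermediate arrays were below all of the other 9 for 212 genes, and the high arrays above all of the other 9 for 235. Of the 103 higher genes, 12 had all other arrays nearer the high set, 20 nearer the intermediate set and 71 were mixed.

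**Figure D4:**
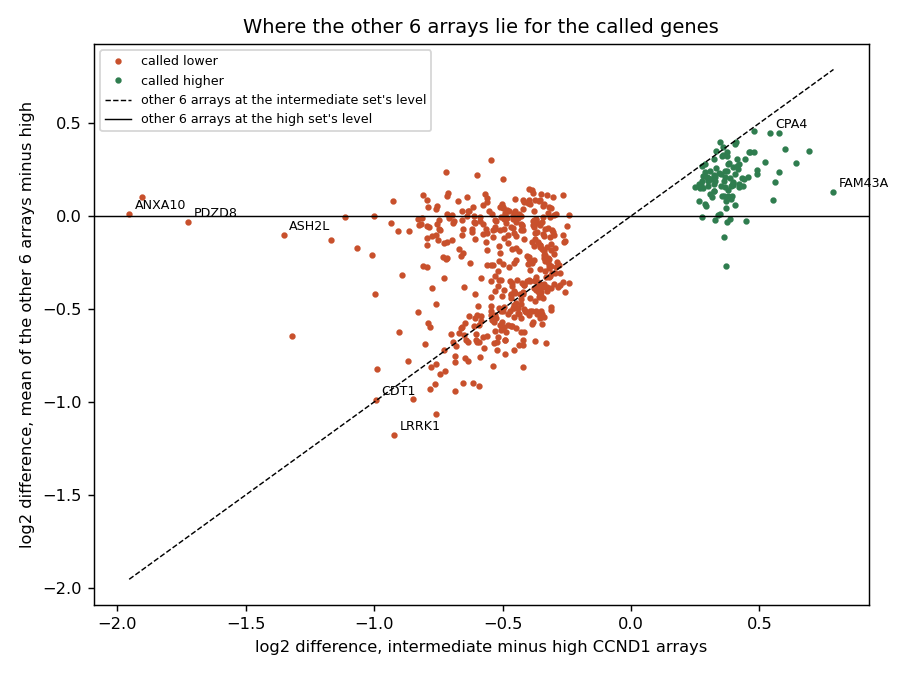
For each called gene, the mean of the other 6 arrays minus the high set (log2, y axis) against the intermediate set minus the high set (log2, x axis). Genes on the solid line, such as ANXA10 at −1.95, are low on the intermediate arrays alone, and genes near the dashed line, such as CDT1 at −0.99, are high on the all-targets-high arrays alone.

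The genes with the largest falls were of the first kind. All 10 genes lower by more than 1 on the log2 scale were below all of the other 9 arrays on the intermediate set, and for 9 of them every other array lay nearer the high set. Over all 419 lower genes these counts were 212 and 146. After ANXA10, MLLT11 and PDZD8, the largest was ASH2L, a core subunit of the KMT2 histone H3 methyltransferases. ASH2L intensity was 474.9, 374.7 and 390.4 on the intermediate and 1119, 1072 and 1048 on the high arrays. The groups did not overlap, the other 6 arrays were at 940.6 or above, and the log2 difference was −1.35 (SE 0.0868, limma adjusted p = 0.000363).

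SRPRA, the alpha subunit of the receptor for the signal recognition particle, was at 478.4, 545.6 and 460.7 against 1087, 1059.5 and 1119, with the other arrays at 942.6 or above. Its log2 difference was −1.11 (SE 0.0703, limma adjusted p = 0.000363). HSF5, of the heat shock factor family, was the most even of the 12 largest, at 239.0, 237.2 and 234.4 against 495.0, 535.4 and 518.5. It fell by 1.06 (SE 0.0525, limma adjusted p = 0.000139), and the other 6 arrays at 405.0 to 478.7 lay between the sets but nearer the high one.

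CMTM4, a tetraspan membrane protein that stabilises PD-L1, fell by 1.01 (SE 0.0833, limma adjusted p = 0.000759). A second CMTM4 probe fell by 0.81 and another, near background, gave 0.03. UHMK1, a kinase known to phosphorylate the CDK inhibitor p27, was at 176.3, 225.8 and 259.3 against 448.8, 467.8 and 449.6. Its intermediate arrays spread more widely than those of the other 11 largest, and UHMK1 fell by 1.00 on the log2 scale (SE 0.115, limma adjusted p = 0.0033). ANKRD20A3P fell by 1.17 (limma adjusted p = 0.000595). It is a pseudogene of a family of near-identical copies, so its probe may read other members, and its second, dim probe gave −0.02.

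LOC100996671 and NUP62CL were graded. LOC100996671, to which no role is assigned here, was at 786.3, 741.5 and 735.4 on the intermediate and 1887, 1974 and 1878 on the high arrays, with the other 6 between, at 1072.5 to 1416. The log2 difference was −1.32 (SE 0.0540, limma adjusted p = 5.84e-05). NUP62CL, related to the nuclear pore protein NUP62, fell by 1.00 (SE 0.0899, limma adjusted p = 0.00112), and its other 6 arrays also lay between the sets, at 170.7 to 208.4.

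Among smaller falls, those of the first kind included genes of the lists for trafficking, stress and signalling. CLTA, a clathrin light chain, was at 1469.9, 1124 and 1419 on the intermediate and 2508.5, 2314 and 2289 on the high arrays, and fell by 0.83 (SE 0.0999, limma adjusted p = 0.00423). FOS, an immediate early transcription factor, fell by 0.42 (limma adjusted p = 0.0054), SESN1, a stress-induced p53 target, by 0.48 (limma adjusted p = 0.00535) and NUMB, an inhibitor of Notch, by 0.37 (limma adjusted p = 0.0239). All 6 other arrays lay nearer the high set for each of these. A second NUMB probe gave −0.13 and did not pass (limma adjusted p = 0.291). Chosen after their values were seen, VCL, which encodes the focal adhesion protein vinculin, fell by 0.81, LTBR, the lymphotoxin beta receptor, by 0.83, and LGALS8, a galectin, by 0.93. VCL was at 3982.5 to 4499 on the intermediate arrays and at 6933 or above on the other 9.

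The replication genes were of the second kind. Of 45 tested E2F targets and replication genes, 23 (51.1%) were lower and 0 higher, beside 3.12% and 0.767% of all genes. Their median log2 difference was −0.42, against 0.01 over all genes tested, and 42 of 45 were negative. The called members were the origin licensing and firing genes CDT1, CDC6, ORC1 and MCM10, the helicase genes MCM2, MCM4, MCM5, MCM6, MCM7, CDC45, GINS2, GINS3 and GINS4, and the primase and polymerase genes PRIM1, POLE and POLE2. The clamp loader gene RFC4, the single-strand binding gene RPA2, FEN1, CHAF1A, CDCA7 and the nucleotide synthesis genes RRM1 and TYMS completed them. The count was 13 without the array labelled no siRNA replicate 1, 12 without cyclin D1 siRNA replicate 1, and 24 without cyclin D1 siRNA replicate 3. With the label as a block 0 of these genes were called, and the methods' test likewise called 0. At an unadjusted p under 0.05, limma gave 32 lower and 1 higher of the 45, beside 9.51% lower and 7.69% higher of all genes tested.

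CDT1, which loads the MCM helicase onto origins, had an intensity of 399.0, 337.9 and 356.9 on the intermediate arrays and 758.8, 689.1 and 784.2 on the high arrays. The log2 difference was −0.99 (SE 0.0766, limma adjusted p = 0.000613), without overlap. The remaining arrays were at 447.7, 391.1 and 480.2 where CCND1 was under 4000, with 2 of the 3 above every intermediate array, and at 298.2 to 307.2, below every intermediate array, where CDK4 was under 1000.

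PRIM1, the catalytic subunit of primase, fell by 0.78 (SE 0.0727, limma adjusted p = 0.00133), from 931.7, 895.5 and 865.8 on the high arrays to 554.2, 465.4 and 532.1. FEN1, the flap endonuclease of lagging-strand synthesis, fell by 0.76 (SE 0.0689, limma adjusted p = 0.00112). GINS2, a subunit of the replicative helicase, was at 1744, 1626.5 and 1836 against 3067, 2799 and 2992, and fell by 0.76 (SE 0.0648, limma adjusted p = 0.00085). The arrays outside both sets were lower still for GINS2, at 1305 to 1570. For all 23 called genes of the list, the 3 high arrays were above all of the other 9, and all 6 remaining arrays lay nearer the intermediate set. Over all 419 lower genes these counts were 235 and 175.

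Other members did not pass the test. PCNA, the polymerase clamp, had a log2 difference of −0.51 (SE 0.122, limma adjusted p = 0.0786) and MCM3 of −0.39 (SE 0.0850, limma adjusted p = 0.0551). E2F1 itself was at 782.9, 619.8 and 636.7 on the intermediate and 723.8, 722.1 and 662.8 on the high arrays, so that the groups overlapped (log2 difference −0.05, SE 0.0908). CCNE1, the G1/S cyclin E1, and TK1, thymidine kinase, also overlapped, with log2 differences of −0.18 and 0.15.

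Mitotic genes followed in smaller number. Of 43 tested, 10 were lower (23.3%) and 0 higher, beside 3.12% and 0.767% of all genes, with a median log2 difference of −0.22. PRC1, which bundles microtubules of the spindle midzone, fell by 0.77 (SE 0.0941, limma adjusted p = 0.00425). CDK1, the mitotic kinase, was at 1402, 1273 and 1637 on the intermediate and 1973, 2025 and 2067 on the high arrays and fell by 0.49 (SE 0.0877, limma adjusted p = 0.0239). A second CDK1 probe gave −0.46 and did not pass (limma adjusted p = 0.16). The kinases AURKB and TTK fell by 0.47 each, and MAD2L1, KIF11, SPC24, SPC25, FOXM1 and GTSE1 were also called. The high arrays were above all of the other 9 for all 10 genes, beside 235 of all 419 lower genes. Only 7 of the 10 had all 6 other arrays nearer the intermediate set, beside 175 of the 419. The other 3 were mixed, such as PRC1, whose other 6 arrays lay between the sets at 2186.5 to 2572. PLK1 went the other way, with a log2 difference of 0.29 that did not pass (limma adjusted p = 0.128). The mitotic count was 2 without the array labelled no siRNA replicate 1, 2 without cyclin D1 siRNA replicate 1, and 6 without CDK4/6 siRNA replicate 1.

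Of 24 tested CDK inhibitors and p53 targets, SESN1 and CDKN2D were lower, 0 were higher and the median was −0.01. Over all genes tested, 3.12% were lower and 0.767% higher. CDKN2D, an inhibitor of CDK4 and CDK6, fell by 0.35 (SE 0.0609, limma adjusted p = 0.0214), with all other arrays nearer the intermediate set. Chosen after its values were seen, CCND3, a D-type cyclin like cyclin D1, was at 5341, 5638 and 5432 on the intermediate and 7612, 7825 and 7478 on the high arrays. It fell by 0.48 (SE 0.0517, limma adjusted p = 0.00247) and was at 7181 to 7517 where CCND1 was under 4000. Also chosen after their values were seen, LRRK1, a kinase with leucine-rich repeats, fell by 0.92 and TNS4, a focal adhesion adaptor of the tensin family, by 0.99, both with all 6 other arrays nearer the intermediate set. LRRK1 and TNS4 were among the 16 genes that passed with the label as a block, along with ANXA10, MLLT11, PDZD8, ASH2L, SRPRA and HSF5. LRRK1, TNS4, ANXA10, MLLT11 and PDZD8 were chosen with their values known, so that their passing gives no support.

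The E2F-type motif was searched in the promoters, since the replication genes are known E2F targets. The letters were TTTCCCGC, TTTCGCGC, TTTGCCGC and TTTGGCGC, on both strands, in the 250 bases before the start of each gene in RefSeq (GRCh38.p14). Of all tested genes with a promoter in that table, 548 of 10822 (5.06%) held a match, as did 38 of 356 lower genes (10.7%) and 2 of 84 higher genes (2.38%). Among lower genes with all other arrays nearer the intermediate set, 27 of 149 (18.1%) held one. Among those with all others nearer the high set, 6 of 125 (4.8%) did, and ANXA10, MLLT11 and PDZD8 held none. Of the lower replication genes, 7 of 19 (36.8%) held a match, with no test of these shares. The 100 bases before the start are shown for 4 of those genes, 5′ to 3′ on the gene's strand, with the match in capitals, to let the motif be seen in its place. They are CDT1 at chr16:88803689-88803788 (plus strand), GINS2 at chr16:85688955-85689054 (minus), CDCA7 at chr2:173354772-173354871 (plus) and POLE at chr12:132687343-132687442 (minus).
CDT1: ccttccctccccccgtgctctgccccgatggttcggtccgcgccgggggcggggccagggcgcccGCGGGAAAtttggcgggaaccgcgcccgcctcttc
GINS2: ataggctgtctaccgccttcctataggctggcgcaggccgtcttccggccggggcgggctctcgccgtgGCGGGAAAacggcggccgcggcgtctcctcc
CDCA7: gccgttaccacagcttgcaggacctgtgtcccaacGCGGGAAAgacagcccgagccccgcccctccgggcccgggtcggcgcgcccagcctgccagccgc
POLE: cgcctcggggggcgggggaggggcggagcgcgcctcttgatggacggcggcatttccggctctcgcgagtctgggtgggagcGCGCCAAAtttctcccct
CDT1, GINS2 and CDCA7 share the letters GCGGGAAA, which are TTTCCCGC read from the other strand, and POLE has GCGCCAAA, which is TTTGGCGC read in the same way. CDCA7, a chromatin protein that works with the helicase HELLS, and POLE, the leading-strand polymerase, were both called lower.

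Genes higher on the intermediate-CCND1 arrays changed less, and no list held more than 2 of them. FAM43A, to which no role is assigned here, was at 823.9, 956.6 and 872.7 on the intermediate and 511.6, 514.3 and 484.4 on the high arrays. It rose by 0.79 (SE 0.0664, limma adjusted p = 0.000815), and the other 6 arrays lay at 484 to 600.1, with the high set. CEMIP, a hyaluronan-degrading protein, was at 2013, 2309 and 1586 against 1264.5, 1225 and 1107 and rose by 0.69 (SE 0.125, limma adjusted p = 0.0256). Its other arrays, at 1291 to 1794, overlapped with the intermediate set.

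G0S2, an inhibitor of the triglyceride lipase ATGL, rose by 0.55 (SE 0.0672, limma adjusted p = 0.00424), and all other arrays lay nearer the high set, at 997 to 1279. CPA4, a secreted carboxypeptidase, was at 2366.5, 2849.5 and 2502 against 1646, 1887 and 1745 and rose by 0.54 (SE 0.0824, limma adjusted p = 0.012). All 6 others, at 2272 to 2456, were nearer the intermediate set, so that CPA4 was low on the high arrays alone. COL8A1, a type VIII collagen chain, rose by 0.52 (limma adjusted p = 0.0069), with 0.41 and 0.09 at its other probes, neither called. NDP, the Frizzled-4 ligand norrin, rose by 0.49 (limma adjusted p = 0.00466). ERBB2, the receptor tyrosine kinase HER2, rose by 0.49 (limma adjusted p = 0.00912), whereas its second probe, dim, gave 0.11.

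VIPR1, the receptor for vasoactive intestinal peptide, rose by 0.64 (limma adjusted p = 0.0466) and was not called without the array labelled cyclin D1 siRNA replicate 3 (limma adjusted p = 0.0759). Without that array DNAJB9, PSEN2, CD2 and VEGFA also lost their call (limma adjusted p 0.0587, 0.0598, 0.0598 and 0.0725). The olfactory receptor gene OR2V2 rose by 0.60 and DDX27, an RNA helicase of ribosome biogenesis, by 0.57. VRK3, a vaccinia-related kinase, rose by 0.57 at 1 probe, with 0.17 and 0.04 at others. LFNG, the glycosyltransferase that modifies Notch, rose by 0.56, with 0.04 and −0.08 at dimmer probes. In the Notch list, 1 of 21 genes was lower (NUMB) and 2 were higher (LFNG and PSEN2), beside 3.12% and 0.767% of all genes.

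Of the genes that the study followed on its arrays, SNAI2, encoding the transcriptional repressor Slug, was the only one called among 11 tested. Over all genes tested, 0.767% were higher. SNAI2 intensity was 1556, 1457 and 1681.5 on the intermediate and 1156, 1121.5 and 1212 on the high arrays, and it rose by 0.42 (SE 0.0665, limma adjusted p = 0.0142). The sets did not overlap, and the remaining arrays lay at 1318 to 1475 where CCND1 was under 4000 and at 1215 to 1261 where CDK4 was under 1000. A second SNAI2 probe gave 0.51 and did not pass (limma adjusted p = 0.111). ID1, an inhibitor of bHLH transcription factors, overlapped between the sets, at 1205 to 1315 against 1113.5 to 1278 (log2 difference 0.07, SE 0.0672). On the arrays with CCND1 under 4000 it was at 1719 to 1750. CDH11, OB-cadherin, had a log2 difference of 0.28 (limma adjusted p = 0.105) and TGFB1 of −0.25 (limma adjusted p = 0.103). VIM, TWIST1 and SNAI1 overlapped between the sets, and TWIST1 and SNAI1 lay near background. This list was chosen by the study on these samples and is not independent evidence of a direction.

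Most other pathways gave few calls, beside 3.12% lower and 0.767% higher over all genes tested. At that share, lists of these sizes would hold few or no called genes, so that these counts set no pathway apart. In the interferon and RNA sensing list, 0 of 31 genes were called, with a median of 0.07, and IFIT1 overlapped widely, at 1080 to 1697.5 against 1103 to 1707. The same was true of heat shock and oxidative stress (0 of 21), cholesterol synthesis (0 of 23), TGF-beta and BMP response (0 of 21), YAP targets (0 of 19), RNA interference machinery (0 of 17) and epithelial genes (0 of 19), all by limma at an adjusted p of 0.05. At an unadjusted p under 0.05, 25 of the 150 genes of these 7 lists passed, beside 17.2% of all genes tested. In the mesenchymal list 1 of 22 was called (SNAI2), in glycolysis and hypoxia 1 of 28 (VEGFA, the vascular growth factor, 0.40), and in the histone list 1 of 15 (H2BC5, 0.48, with 0.12 at its second probe). A second VEGFA probe gave 0.27 and did not pass (limma adjusted p = 0.139). IL11 was the only called gene of 18 cytokines, at −0.34, and DNAJB9, an endoplasmic reticulum chaperone, of 26 genes of the unfolded protein response, at −0.27. Of 20 annexins and S100 proteins, ANXA10 was the only one called. Over the 20 pathway lists together, 41 of 454 genes were lower and 5 higher, beside 3.12% and 0.767% of all genes tested. Replication or mitosis genes were 33 of the 41.

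**Figure D5:**
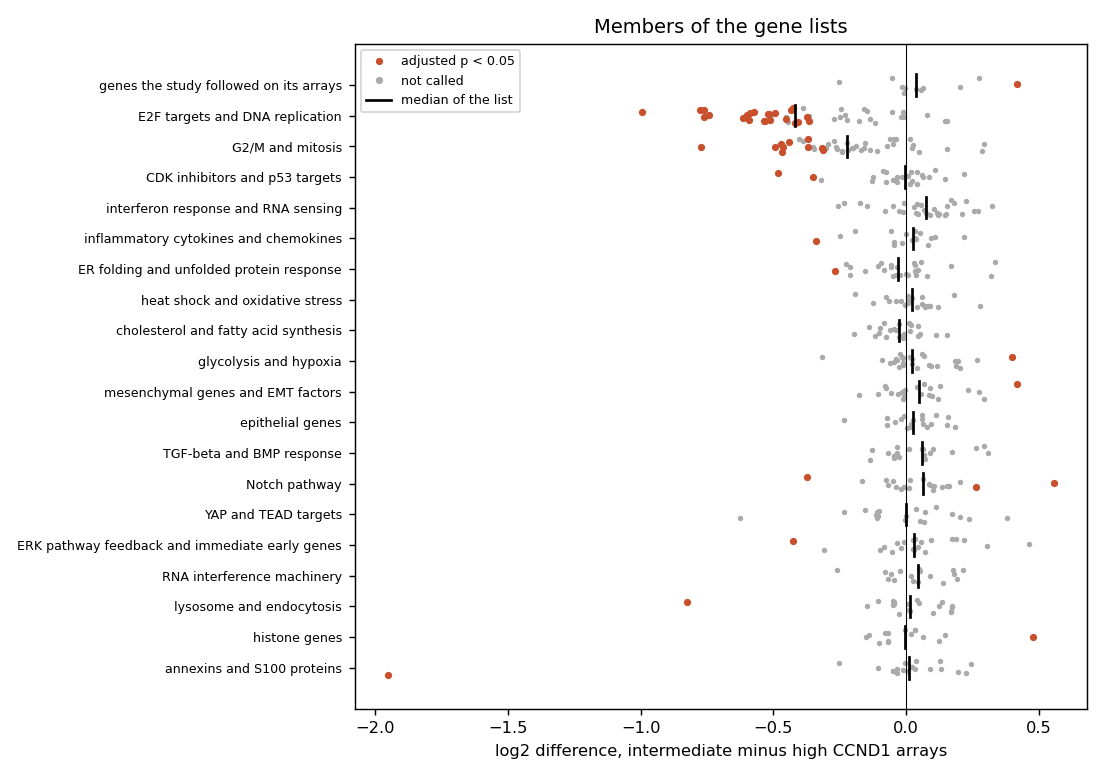
Log2 difference between the sets (intermediate minus high, x axis) for the tested members of each of the 20 pathway lists (y axis), with 1 point a gene, called genes in orange and the median as a bar. The replication list lies to the left at a median of −0.42 and the mitosis list at −0.22, whereas the medians of the others lie near 0.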

How the data were processed

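RNA of 12 MDA-MB-231 samples was labelled and hybridised to Illumina bead arrays. The authors deposited linear intensity values for 48803 probes, already normalised, since at equal rank the arrays differ by at most 0.753% outside the extreme ranks. The lowest intensity is 28 and the median 44.1, so background had not been removed. The software and normalisation method were not given in the sources read. A second deposited table, before normalisation, has 24 per-sample columns whose names match no label, and they were not used. Intensities were corrected with normexp (offset 50), quantile-normalised and taken to log2 (limma 3.58.1 in R 4.3.3, figures with matplotlib 3.10.9). The offset of 50 pulls differences of dim probes toward 0.

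The background was the mode of all intensities (39.6) plus the spread below it (SD 2.99), giving 44.5 at a one-sided p of 0.05. A probe was tested if above it on at least 3 arrays, which kept 26623 probes (54.6%). Of all probes, 27578 have 1 symbol in the platform annotation, 13 several and 21212 none there. The RefSeq gene table (GRCh38.p14) held the Entrez number of 27541 probes, and 0 symbols changed. A gene is its brightest tested probe.

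The 2 sets were compared with lmFit and eBayes (two-sided), with Benjamini-Hochberg adjustment over all tested probes except those of CCND1, CDK4 and CDK6. With 3 arrays against 3, an exact permutation test of a single value cannot go below 0.1, and the number of arrays limits the precision. Named are ANXA10, MLLT11 and PDZD8, the 12 largest called genes in each direction whose sets do not overlap, and up to 4 called genes a list. The sets, the genes and the lists were chosen with earlier results of these data known. The fit was tested on simulated data. Alternatives, 1 of them (the replicate block) chosen after seeing the data, covered background, normalisation, filters, test, probes, weights, the label as a block and each array left out.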

Additional observations from a re-analysis of the deposited data

How the results depend on the processing

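The compared sets share no replicate number, and no source used here gives slides. A replicate block could be fitted over all 12 arrays, through the other 6 (6 residual degrees of freedom), an alternative chosen after seeing the data. With this replicate block 7 genes were lower and 0 higher, 0 lower and 0 higher in the lists, and 0 replication and 0 mitosis genes, with 1039 at an unadjusted p under 0.05. ANXA10 was at −2.02, MLLT11 at −1.77 and PDZD8 at −1.71 (limma adjusted p 0.0756, 0.0136 and 0.00662). These 3 genes were chosen for their pattern on these arrays, so that their p-values, here and below, give no support. Of the 522 called genes, 518 kept their direction. The 3 high arrays, cyclin D1 siRNA replicate 2, CDK4/6 siRNA replicate 3 and non-targeting siRNA replicate 3 correlated best with an array of their own number. Each of those matches also lay within the array's own level-defined group. The remaining arrays did not match by number. Non-targeting siRNA replicate 1 and no siRNA replicate 2 matched each other among arrays with CCND1 under 4000 (r = 0.429). Non-targeting siRNA replicate 2 and no siRNA replicate 3 did so among arrays with CDK4 under 1000 (r = 0.372). CDK4/6 siRNA replicate 2 and cyclin D1 siRNA replicate 3 matched each other across groups (r = 0.427). Under the other alternatives all called genes that were tested kept their direction, which sets without overlap largely fix in advance. Without background correction 406 genes were lower and 86 higher. With no filter the counts were 433 and 113, with array weights 463 and 114, and with the mean over probes 451 and 131, of which 3 higher genes were in the lists. With normexp at offset 16, 327 were lower and 44 higher, with 3 higher list genes and 5 lower mitosis genes. With all 12 arrays in the fit, 628 were lower and 256 higher, 71.0% of calls being lower, with 11 higher list genes and 16 lower mitosis genes. The label as a block gave 16 lower and 0 higher, 1 lower and 0 higher in the lists, and 0 replication and 0 mitosis genes. The methods' t-test called 0 genes in either direction, in the lists, and among replication and mitosis genes, after Benjamini-Hochberg adjustment, with 1524 at an unadjusted p under 0.05. Under it ANXA10 (−1.95), MLLT11 (−1.90) and PDZD8 (−1.72) had adjusted p of 0.188, 0.122 and 0.0812. The cause of these shifts was not tested.

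Leaving out each array in turn gave 209 to 436 lower and 20 to 89 higher genes, 18 to 43 lower and 1 to 7 higher list genes, 12 to 24 replication genes and 2 to 11 mitosis genes. ANXA10 ran from −2.02 to −1.83, MLLT11 from −1.97 to −1.81 and PDZD8 from −1.75 to −1.67. Of 41 other named genes, 0 reversed in any setting. Their sets did not overlap, so in most settings the direction was largely fixed in advance. The call was lost by 5 to 16 of them when an array was left out (16 without cyclin D1 siRNA replicate 1), by 36 under the label as a block, 39 under the replicate block and 41 under the methods' t-test, and by at most 7 in the other settings.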
